A study of Mus musculus with 4 samples.

Results

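The SLC25 genes encode the mitochondrial carrier family, and they were followed here in B16F10 cells, a mouse melanoma line from a C57BL/6 animal, after knockdown of Lmna, the gene of the nuclear lamina proteins lamin A and lamin C. Membership followed from the gene symbol, with no measured value in the rule. Every row of the count matrix whose symbol starts with Slc25a and a number was taken, which gave 47 genes of 24421 in all. The control group (shControl) carried an empty lentiviral vector with puromycin resistance, and the knockdown group (shLmna) carried a vector with a hairpin against Lmna. Each group had 2 libraries, all 4 came from cells selected with puromycin, and no other treatment, time or genotype separated them. The shLmna line rested on a single hairpin, so effects of carrying any hairpin and effects of this hairpin on other transcripts cannot be told apart from the loss of Lmna. No source used here says whether replicate libraries were grown separately, so the p-values measure only the spread between these libraries, which may be technical. RNA was counted at the 3′ end of transcripts in a protocol that tags each molecule before amplification. The study's methods place the counting after duplicate tags were marked. The deposited counts were 1.08 to 1.09 times the counts recovered from the normalised values deposited beside them, and which step separates the 2 files was not tested. In bulk RNA of this kind, less RNA per cell and fewer cells that express a gene cannot be told apart.

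The inner membrane of the mitochondrion is closed to most metabolites, and the carriers of this family let named substrates through it. They exchange ADP for ATP, import phosphate for ATP synthesis, move citrate, malate and aspartate between the matrix and the cytosol, and bring in cofactors such as coenzyme A, folate, NAD and glutathione. The proteins share a fold made of repeated pairs of membrane helices, are encoded in the nucleus, and reach the inner membrane through the import machinery of the outer membrane and small chaperones of the intermembrane space. Several substrates are served by a pair of closely related carriers with different tissue distribution.

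Of the 6 members that were lower in shLmna cells by the test described further on, 4 had an entry among the RefSeq promoters of GRCm38.p6, and the 250 bases before their annotated starts are printed to show the DNA these transcripts begin from. Capitals mark an E-box (CACGTG) or a GC box (GGGCGG, or CCGCCC when read on the other strand), the DNA words of helix-loop-helix factors and of Sp1-type factors. The stretch of Slc25a13 is on the minus strand at chr6:6217174-6217423, that of Slc25a16 on the plus strand at chr10:62920383-62920632, that of Slc25a1 on the minus strand at chr16:17928220-17928469 and that of Slc25a5 on the plus strand at chrX:36795347-36795596.
Slc25a13: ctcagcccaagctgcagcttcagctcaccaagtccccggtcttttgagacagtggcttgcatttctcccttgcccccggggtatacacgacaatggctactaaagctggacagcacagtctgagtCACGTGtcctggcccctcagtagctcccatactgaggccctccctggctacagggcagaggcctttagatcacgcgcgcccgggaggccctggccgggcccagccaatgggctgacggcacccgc
Slc25a16: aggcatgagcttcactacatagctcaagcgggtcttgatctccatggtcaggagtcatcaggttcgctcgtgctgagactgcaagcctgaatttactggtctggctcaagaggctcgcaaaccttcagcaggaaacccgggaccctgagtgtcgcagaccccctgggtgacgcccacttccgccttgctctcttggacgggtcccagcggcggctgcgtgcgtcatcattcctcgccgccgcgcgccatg
Slc25a1: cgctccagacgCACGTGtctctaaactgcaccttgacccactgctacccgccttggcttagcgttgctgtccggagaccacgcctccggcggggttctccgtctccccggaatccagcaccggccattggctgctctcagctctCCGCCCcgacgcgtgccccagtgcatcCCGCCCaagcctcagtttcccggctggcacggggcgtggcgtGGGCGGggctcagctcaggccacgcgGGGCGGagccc
Slc25a5: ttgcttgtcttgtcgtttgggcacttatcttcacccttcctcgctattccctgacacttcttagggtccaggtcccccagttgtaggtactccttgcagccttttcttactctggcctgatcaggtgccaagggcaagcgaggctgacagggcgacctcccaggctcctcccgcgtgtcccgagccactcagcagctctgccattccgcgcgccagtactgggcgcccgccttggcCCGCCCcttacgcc
Neither word was found in all 4 stretches. Slc25a13 held 1 E-box and no GC box, Slc25a1 held 1 E-box and 4 GC boxes, Slc25a5 held 1 GC box, and Slc25a16 held neither. Over the 46 promoter entries of the 36 members that matched the RefSeq table, 17.4% held an E-box on either strand, beside 6.02% of all 32851 promoters of the same length, and 69.6% held a GC box beside 32.7%. The words of the mitochondrial regulator NRF1 and of ETS-type factors (CCGGAAG) were found in 4.35% and 13.0% of member promoters, beside 4.98% and 6.91% of all promoters. These matches describe letters in the promoters and not binding.

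Library totals ran from 2494880 to 3808843 counts. Lmna itself had 2826 and 2684 counts in the 2 shControl libraries and 331 and 480 in the 2 shLmna libraries, a log2 fold change of -2.61 with an SE of 0.142 (edgeR quasi-likelihood test, adjusted p = 7.93e-06). The label of a melanoma was checked against marker lists. The 7 melanocyte markers summed to 20117 to 20891 CPM (counts scaled to a common library size) in shControl and to 21156 to 24602 CPM in shLmna, with 1 of the 6 tested markers lower (Sox10) and 2 higher (Pmel, Mlana). The melanocyte marker Tyr was itself sparse, at 0.310 and 0.268 CPM in shControl and 1.19 and 1.91 CPM in shLmna. Markers of other cell types were low beside the melanocyte sums. The highest was the immune marker Cd68, at 16.4 and 14.5 CPM in shControl and 10.7 and 12.0 CPM in shLmna. The 6 fibroblast markers summed to 7.12 to 7.50 CPM in shControl and to 2.37 to 4.90 CPM in shLmna with Dcn and Lum at 0, and the 7 immune markers to 14.7 to 18.0 CPM and to 11.5 to 13.4 CPM with Ptprc, Cd3e, Itgam and Adgre1 at 0. The 5 endothelial markers summed to 3.10 to 3.21 CPM and to 0 to 1.36 CPM with Cdh5 and Kdr at 0, and the 6 epithelial markers to 2.95 to 5.89 CPM and to 0.396 to 1.63 CPM with Epcam, Krt5 and Krt14 at 0.

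The total output of the family was close in both groups while its make-up differed at a few genes. SLC25 transcripts took 0.563% and 0.576% of all counts in shControl and 0.559% and 0.560% in shLmna. Most of that came from 4 genes, the phosphate carrier Slc25a3, the ADP/ATP carriers Slc25a4 and Slc25a5 and the glutathione carrier Slc25a39, which together held 78.4% and 79.4% of SLC25 counts in shControl (95% Wilson intervals 77.8 to 79.0 and 78.9 to 80.0) and 80.3% and 80.6% in shLmna (79.6 to 80.9 and 80.0 to 81.1). These intervals, and all others given here, cover counting error only. A count was found for 41 members in at least 1 library, and in single libraries for 38 and 41 members in shControl and for 37 in each shLmna library. The remaining 6 members, Slc25a2, Slc25a18, Slc25a30, Slc25a31, Slc25a48 and Slc25a54, had no count in any library. Slc25a31 is the testis ADP/ATP carrier and Slc25a18 a glutamate carrier. A count of 0 in all libraries allows a level of up to 1.19 CPM in the shallowest library (3 counts of its total). Another 7 members had counts too low for the test, and 34 members entered it.

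Among these 34 members, 6 passed as lower in shLmna at an adjusted p under 0.05 and 2 as higher. The lower members were Slc25a13, Slc25a16, Slc25a32, Slc25a37, Slc25a1 and Slc25a5, and the higher ones Slc25a14 and Slc25a51. In percent, 17.6% of tested members were lower, against a background of 9.74% of all 9150 tested genes, and 5.88% were higher against a background of 5.48%. When the limits of the study were added (an absolute log2 fold change above 1 and a mean normalised count above 5), 4 members were lower, or 11.8% beside 5.88% of all genes, and 1 was higher, or 2.94% beside 1.76%. Slc25a16, Slc25a32 and Slc25a37 had counts under 10 in both shLmna libraries and entered the test through shControl alone. They could therefore pass only as lower, and Slc25a10, which entered through shLmna alone, only as higher. The same filter held for all genes, and the background share of such genes was not counted. The centre of the family hardly moved. The median log2 fold change of the tested members was -0.08 with quartiles of -0.43 and 0.28, beside a median of -0.00107 with quartiles of -0.30 and 0.27 over all tested genes, and 19 members lay below 0 and 15 above. A change smaller than 0.5 on the log2 scale was found in 67.6% of the members and in 71.9% of all tested genes. In 11 members both shLmna libraries lay below both shControl libraries in CPM (32.4%, beside 30.6% of all genes) and in 12 both lay above (35.3%, beside 29.5%), so separation of the 2 groups without overlap was about as common in the family as elsewhere.

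**Figure D1:**
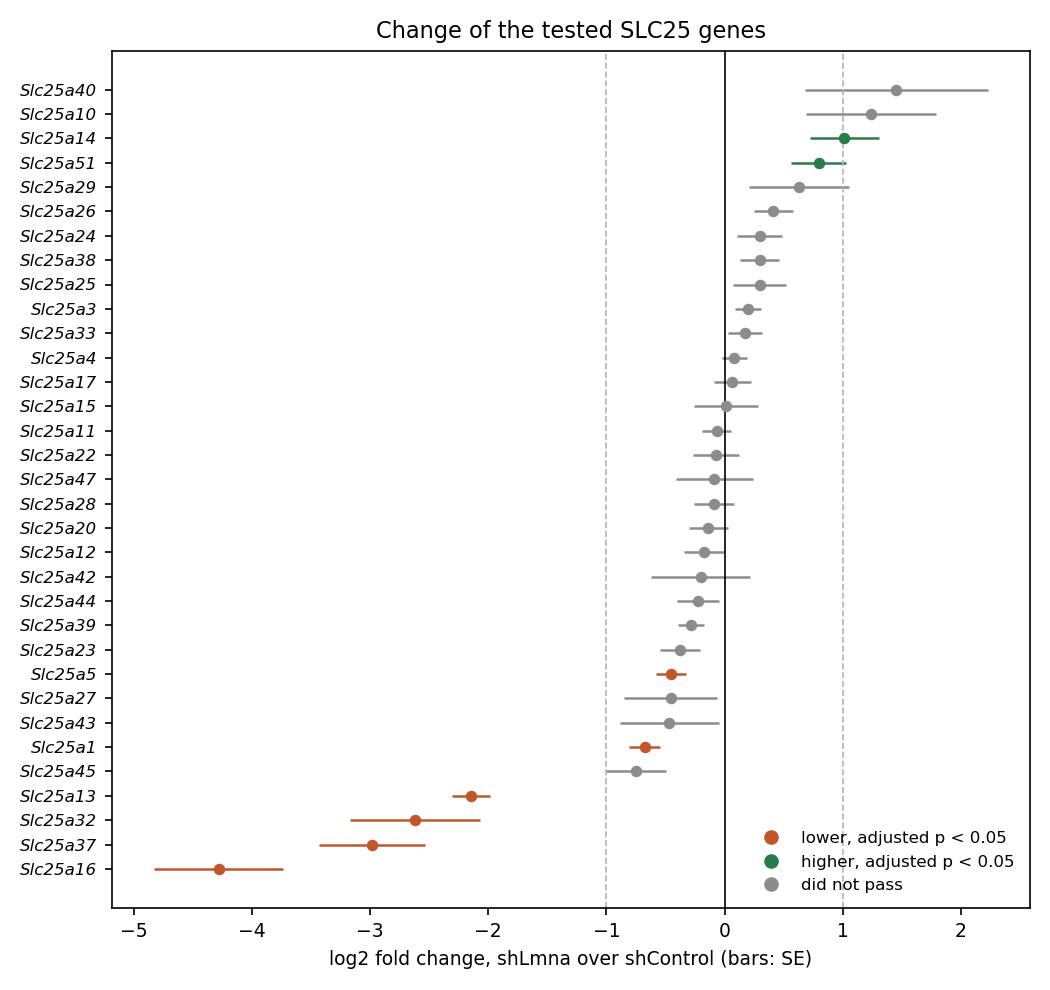
Log2 fold change of shLmna over shControl (horizontal axis) for the tested SLC25 genes, sorted by size, 1 of them left out, with bars of 1 SE and dashed lines at -1 and 1. Slc25a16, Slc25a37, Slc25a32 and Slc25a13 stand to the left of -2 and apart from the rest, most of which lie between -0.5 and 0.5, while Slc25a40 and Slc25a10, at the right end, have wide bars and did not pass.

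The lowest adjusted p of the family belonged to a carrier of amino acids. Slc25a13, or citrin, exchanges mitochondrial aspartate for cytosolic glutamate under the control of calcium and is a step of the malate-aspartate shuttle and of the urea cycle in liver. The gene has 18 exons and lies on the minus strand at chr6:6041218-6217173 (GRCm38). It had 334 and 405 counts in shControl against 54 and 95 in shLmna, or 103.5 and 108.4 CPM against 21.4 and 25.9 CPM. Each shLmna library lay far below each shControl library, and the replicates of a group were close to each other. The mean fell from 105.9 ± 3.52 CPM (SD, n = 2) to 23.6 ± 3.20 CPM (SD, n = 2), and the log2 fold change was -2.15 with an SE of 0.161 (edgeR, adjusted p = 2.59e-05).

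Its closest relative did not follow. Slc25a12, or aralar, carries the same substrates in brain and muscle and had 282 and 265 counts in shControl against 156 and 285 in shLmna. In CPM the groups overlapped, and the log2 fold change was -0.17 with an SE of 0.167 (edgeR, adjusted p = 0.532). Slc25a13 therefore made up 54.2% and 60.4% of the counts of the pair in shControl and 25.7% and 25.0% in shLmna. The Wilson intervals of the 2 groups did not overlap, reaching down to 50.3% in shControl and up to 32.0% in shLmna. With 2 libraries a group an exact permutation test cannot go below p = 0.333, which is the value it gave for each of the 8 related pairs examined.

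The other 8 tested carriers of amino acids and carnitines did not pass. Slc25a20, which exchanges acylcarnitines for carnitine in fatty acid oxidation, had 146 and 194 counts in shControl against 109 and 166 in shLmna (log2 fold change -0.14, SE 0.163). Slc25a22, a glutamate carrier, gave -0.07 with an SE of 0.194, and its sign turned when 1 of 2 libraries, shControl 2 or shLmna 2, was left out. Slc25a38, which carries glycine for heme synthesis, had 248 and 215 counts in shControl against 204 and 308 in shLmna. Both shLmna libraries lay above both shControl libraries in CPM (80.7 and 83.9 against 76.8 and 57.6), with a log2 fold change of 0.30, an SE of 0.164 and an adjusted p of 0.259 by edgeR, and it passed only when shControl 1 was left out (0.52, adjusted p = 0.0265). Slc25a45, a relative of Slc25a20, had 58 and 60 counts against 23 and 40, and did not pass (log2 fold change -0.75, SE 0.255, edgeR adjusted p = 0.0800). Slc25a15, Slc25a29, Slc25a44 and Slc25a47 lay between -0.23 and 0.63 on the log2 scale.

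**Figure D2:**
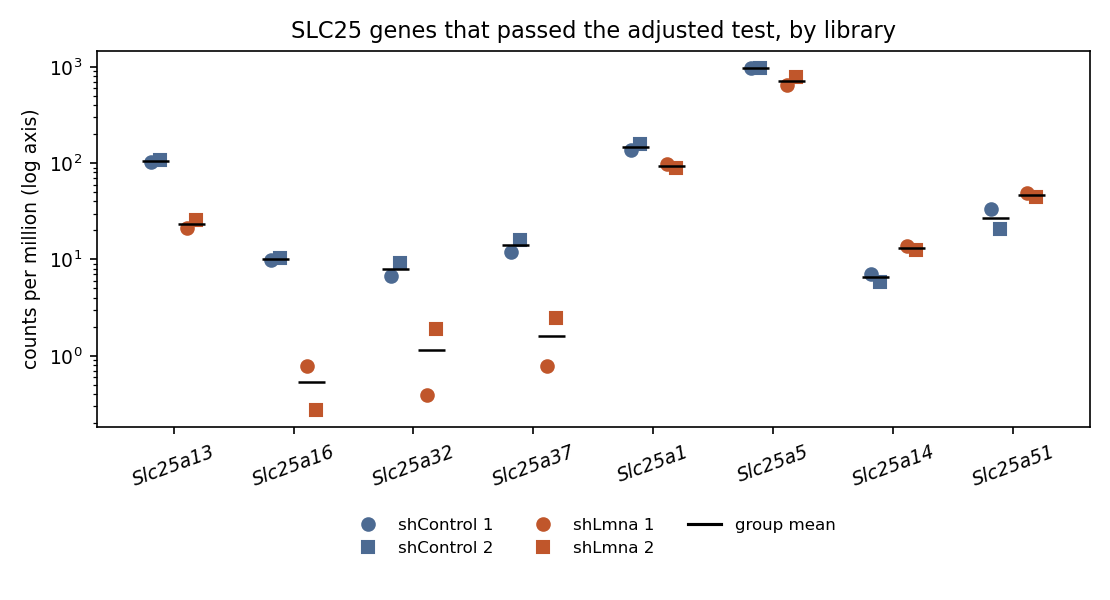
Level in CPM (vertical log axis) of the 8 SLC25 genes that passed the adjusted test, with a circle for the first and a square for the second library of each group (blue, shControl; orange, shLmna) and a black line at each group mean. The shLmna points of Slc25a13, Slc25a16, Slc25a32 and Slc25a37 lie well below the shControl points, those of Slc25a1 and Slc25a5 slightly below, and those of Slc25a14 and Slc25a51 above, with no overlap in any of the 8.

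The carriers of cofactors and nucleotides held the largest fold change of the family. Slc25a16 is named for coenzyme A from its likeness to the yeast carrier Leu5. Its 9 exons lie on the plus strand at chr10:62920633-62946498. It had 32 and 39 counts in shControl against 2 and 1 in shLmna, or 9.91 and 10.4 CPM against 0.791 and 0.272 CPM. Both shLmna libraries were almost empty of this transcript. The summed counts of 71 and 3 gave, after scaling to library size, a ratio of 21.1 with a 95% counting interval of 6.92 to 104.6, and the fitted log2 fold change was -4.28 with an SE of 0.548 (edgeR, adjusted p = 7.42e-04).

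Slc25a42, the other carrier tied to coenzyme A, had 17 and 15 counts in shControl against 9 and 16 in shLmna. Its groups overlapped, its log2 fold change of -0.20 had an SE of 0.417, and its sign turned to 0.0013 when shControl 1 was left out. Slc25a16 was 65.3% and 72.2% of the counts of the pair in shControl and 18.2% and 5.88% in shLmna. The shLmna shares rest on 11 and 17 counts of the pair, and their Wilson intervals reach up to 47.7% and 27.0%. Slc25a17, the peroxisomal carrier of coenzyme A, FAD and NAD, had 176 and 236 counts against 142 and 245 and a log2 fold change of 0.07 (SE 0.159).

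Slc25a32, which brings folate and FAD into mitochondria and has 7 exons on the minus strand at chr15:39091231-39112716, fell as well. It had 22 and 34 counts in shControl against 1 and 7 in shLmna, or 6.81 and 9.10 CPM against 0.396 and 1.91 CPM. The groups did not overlap, and the 2 shLmna libraries differed from each other by several fold. The log2 fold change was -2.62 with an SE of 0.552 (edgeR, adjusted p = 0.0115), and the summed counts of 56 and 8 gave a ratio of 6.23 with a counting interval of 2.95 to 15.1. The call depended on the tool and on 1 library. DESeq2 gave -2.71 with an adjusted p of 0.0717, and without shLmna 1 edgeR gave -2.04 with an adjusted p of 0.0942, while without shLmna 2 it gave -4.19 with an adjusted p of 0.0414.

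Slc25a51, the mitochondrial NAD carrier, on the minus strand at chr4:45395923-45408766, was the member of this group that rose. It had 107 and 78 counts in shControl against 125 and 162 in shLmna, or 33.1 and 20.9 CPM against 49.4 and 44.1 CPM. Both shLmna libraries lay above both shControl libraries, of which shControl 2 was the lower. The log2 fold change was 0.80 with an SE of 0.231 (edgeR, adjusted p = 0.0448). This call was close to the threshold and was lost with DESeq2 (log2 fold change 0.80, adjusted p = 0.162), with the correction for GC content described further on (0.76, adjusted p = 0.0650) and when any library but shControl 1 was left out (adjusted p = 0.153 to 0.220). The log2 fold change ran from 0.49 without shControl 2 to 1.16 without shControl 1.

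The remaining cofactor and nucleotide carriers did not pass. Slc25a39, needed for the import of glutathione, had 2849 and 3162 counts in shControl against 1785 and 2622 in shLmna. Both shLmna libraries were lower in CPM (706.0 and 714.4 against 882.4 and 846.6), and the log2 fold change of -0.28 with an SE of 0.111 missed the threshold (edgeR, adjusted p = 0.118). Slc25a39 passed on the batch-corrected values with limma (adjusted p = 0.0104), a fit that took no account of the batch correction already made. Its relative Slc25a40 had 0 and 19 counts in shControl against 18 and 28 in shLmna. The 0 of shControl 1 set the size of this difference, which was 1.45 on the log2 scale (SE 0.776, edgeR adjusted p = 0.244) and 0.54 without shControl 1. Without shControl 2, which leaves a control at 0, it passed as higher (adjusted p = 1.94e-04), and it also passed with no filter on low counts (1.47, adjusted p = 0.0157). Slc25a40 made up 0% and 0.597% of the counts of the pair in shControl and 0.998% and 1.06% in shLmna, and the first of these allows a share of up to 0.135% by its Wilson interval. Slc25a26, the carrier of the methyl donor S-adenosylmethionine, had 128 and 132 against 130 and 178 (log2 fold change 0.41, SE 0.166, edgeR adjusted p = 0.127).

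Slc25a33 and Slc25a36 both carry pyrimidine nucleotides. Slc25a33 had 190 and 231 counts in shControl against 161 and 265 in shLmna, a log2 fold change of 0.17 with an SE of 0.145. Slc25a36 had 9 and 12 counts in shControl, and neither shLmna library held any. This was too low for the test as run. Slc25a36 passed as lower with no filter on low counts and on the batch-corrected values with limma. A floor of 3 counts over the shLmna group (0.484 CPM) lay 6.23-fold below the shControl level, with the counting error of shControl left out. Slc25a36 was 4.52% and 4.94% of the counts of the pair in shControl and 0% of those in shLmna, which by the Wilson intervals allows shares of up to 2.33% and 1.43%.

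**Figure D3:**
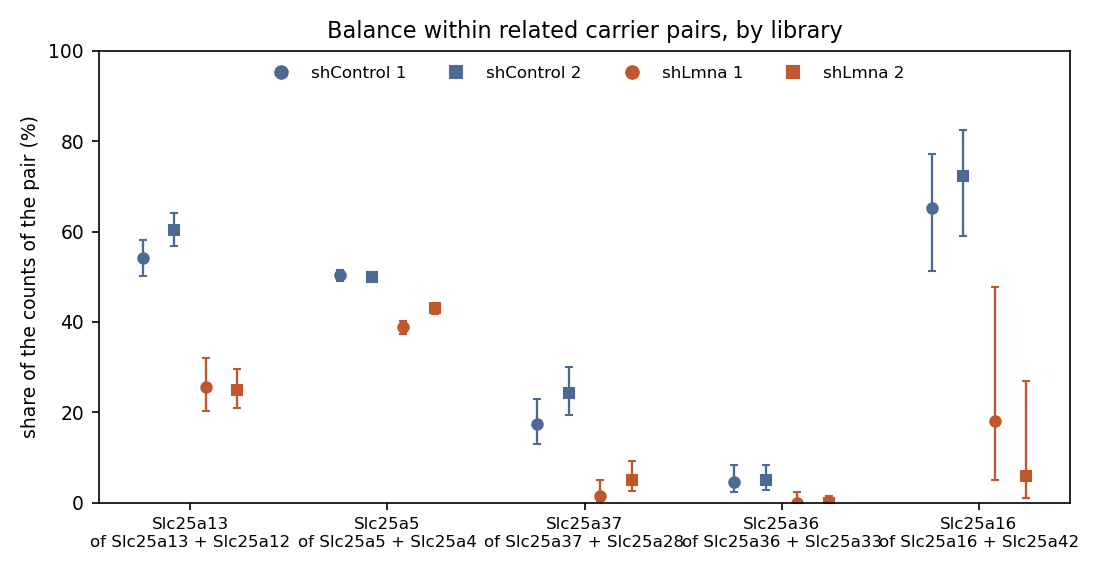
Share of the counts of a related pair (vertical axis, percent) that belonged to the first gene, for 5 pairs of carriers, with 95% Wilson intervals as bars and libraries marked as circles (first) and squares (second) in blue (shControl) and orange (shLmna). The 5 pairs shown are those whose first gene was lower in shLmna, so the common direction follows from that choice. In each pair the 2 orange points lie below the 2 blue points, most widely for Slc25a13 of Slc25a13 plus Slc25a12 and for Slc25a16 of Slc25a16 plus Slc25a42. In the examined pairs not shown (Slc25a40 with Slc25a39, and Slc25a24 and Slc25a25 each with Slc25a23), the share of the first gene was higher in both shLmna libraries.

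Of the 2 iron importers, 1 fell. Slc25a37, or mitoferrin 1, is the importer best known from developing red blood cells and has 4 exons on the minus strand at chr14:69241848-69285112. It had 39 and 60 counts in shControl against 2 and 9 in shLmna, or 12.1 and 16.1 CPM against 0.791 and 2.45 CPM. The groups stood well apart. The log2 fold change was -2.99 with an SE of 0.447 (edgeR, adjusted p = 0.00187), and the summed counts of 99 and 11 gave a ratio of 8.01 with a counting interval of 4.29 to 16.6. Slc25a28, or mitoferrin 2, the broadly used importer, had 185 and 187 counts in shControl against 140 and 169 in shLmna. Its groups overlapped in CPM, and its log2 fold change of -0.09 (SE 0.167) changed sign, to 0.01 and 0.06, without shControl 1 or without shLmna 2. Slc25a37 thus went from 17.4% and 24.3% of the pair to 1.41% and 5.06%.

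The carriers of adenine nucleotides and phosphate, which feed ATP synthesis, hold most of the family's transcripts and differed little. Slc25a3, the phosphate carrier, had 5313 and 6996 counts in shControl against 5230 and 7229 in shLmna. At 1646 and 1873 CPM against 2069 and 1970 CPM, both shLmna libraries lay above both shControl libraries, with a log2 fold change of 0.20, an SE of 0.108 and an adjusted p of 0.255 by edgeR. Slc25a4, the ADP/ATP carrier of heart and muscle, had 3104 and 3629 counts against 2564 and 3795 and a log2 fold change of 0.08 (SE 0.107). Slc25a5, the ADP/ATP carrier of dividing cells, on the plus strand at chrX:36795651-36798807, fell.

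Slc25a5 had 3146 and 3629 counts in shControl against 1625 and 2861 in shLmna, or 974.4 and 971.6 CPM against 642.7 and 779.5 CPM. The shControl libraries were almost equal and both shLmna libraries lay below them. The log2 fold change was -0.45 with an SE of 0.126 (edgeR, adjusted p = 0.0386), and the call was lost without shLmna 1 (-0.32, adjusted p = 0.358) and without shLmna 2 (-0.59, adjusted p = 0.0979). Its share of the pair with Slc25a4 went from 50.3% and 50.0% to 38.8% and 43.0%. The value is uncertain because 73.5% of the stretches of 30 bases at the end of its transcript recur in 13 other genes. Gm5560, Gm5529 and the pseudogene Slc25a5-ps are among them. How the counting treated reads that match several genes is not given in the sources used here.

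Of the calcium-regulated carriers of ATP-magnesium and phosphate, Slc25a23 had 172 and 178 counts in shControl against 90 and 153 in shLmna (log2 fold change -0.38, SE 0.171, edgeR adjusted p = 0.173). Slc25a24 had 85 and 96 counts against 82 and 116 (0.30, SE 0.192) and Slc25a25 had 52 and 58 against 51 and 69 (0.30, SE 0.225). In CPM the groups did not overlap in any of the 3, with Slc25a23 lower and the other two higher in shLmna. Slc25a24 accordingly was 33.1% and 35.0% of its pair with Slc25a23 in shControl and 47.7% and 43.1% in shLmna. Slc25a23, Slc25a26, Slc25a33 and Slc25a35 overlap a gene on the other strand (Gm17168, Lrig1, Gm13068 and Rangrf). Slc25a3, Slc25a14 and Slc25a43 overlap a gene on the same strand (Gm24119, Gm27828 and Gm23613). The counts of all these members are uncertain to the extent that reads of the partners could not be told apart. At the end of Slc25a42, 17.4% of the stretches of 30 bases recur in other genes.

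Among carriers of carboxylates and keto acids, 1 fell, and among the relatives of the uncoupling proteins 1 rose. Slc25a1 exports citrate, from which the cytosol makes acetyl-CoA for fatty acids and sterols. It has 9 exons at chr16:17925223-17928219 on the minus strand. It had 446 and 593 counts in shControl against 247 and 325 in shLmna, or 138.1 and 158.8 CPM against 97.7 and 88.5 CPM. The groups did not overlap, and the fitted level fell by 37.5% (log2 fold change -0.68, SE 0.134, edgeR adjusted p = 0.00887). The call was lost without shLmna 1 (-0.74, adjusted p = 0.0560) and without shLmna 2 (-0.59, adjusted p = 0.130).

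Slc25a11, which exchanges oxoglutarate for malate and works with the aspartate/glutamate carriers in the malate-aspartate shuttle, had 546 and 577 counts in shControl against 408 and 544 in shLmna. Its groups overlapped, and its log2 fold change of -0.07 (SE 0.123) reached values of 0.0030 and 0.0094 without shControl 1 or shLmna 2. Slc25a10, the dicarboxylate carrier, was at 5 and 7 counts against 14 and 11, with a log2 fold change of 1.24, an SE of 0.549 and an adjusted p of 0.162 by edgeR. Slc25a14, a relative of the uncoupling proteins (UCP5) on the plus strand at chrX:48623413-48662294, had 23 and 22 counts in shControl against 35 and 46 in shLmna, or 7.12 and 5.89 CPM against 13.8 and 12.5 CPM. Both shLmna libraries lay clearly above both shControl libraries. The log2 fold change was 1.01 with an SE of 0.292 (edgeR, adjusted p = 0.0436). As with Slc25a51, the call was lost with DESeq2 (log2 fold change 1.02, adjusted p = 0.399), with the GC correction (0.95, adjusted p = 0.0558) and when any library but shControl 1 was left out (0.87 or more, adjusted p = 0.143 to 0.229), while the size of the change stayed close to the reported one. Slc25a27 (UCP4) had 33 and 24 counts against 11 and 27 (-0.46, SE 0.393).

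The other members below the limit of the test were sparse. Slc25a34 had 8 and 10 counts in shControl against 1 and 13 in shLmna, and Slc25a35, another orphan carrier, had 9 and 9 against 2 and 9. Slc25a46, an outer membrane protein of mitochondrial fission and cristae shape, had 1 and 2 counts against 4 and 4. Slc25a21 had 1 and 1 against 0 and 0, and Slc25a41 and Slc25a53 had a single count each, in shControl 2. Slc25a43, an orphan carrier 18448 bases from Slc25a5 on the X chromosome, was tested and had 19 and 17 counts against 11 and 12 (log2 fold change -0.47, SE 0.417). Slc25a29, a basic amino acid carrier, and Slc25a47 lie 162 bases apart on opposite strands of chromosome 12. Slc25a29 had 52 and 19 counts against 41 and 59 and Slc25a47 had 45 and 30 against 24 and 40, with log2 fold changes of 0.63 (SE 0.426) and -0.09 (SE 0.328).

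Genes that work beside the carriers were taken from 9 lists of 100 genes, of which 89 were tested, 4 passed as lower (4.49%) and 11 as higher (12.4%), with a median log2 fold change of 0.08. The percentages stand beside the background of 9.74% lower and 5.48% higher over all tested genes. The numbers moved with the settings, and without shLmna 1 or shLmna 2 only 0 and 1 were lower and 2 and 1 higher. Of the 7 enzymes of the malate-aspartate and glycerol phosphate shuttles 1 passed. Gpd1l, a glycerol-3-phosphate dehydrogenase relative, had 106 and 146 counts in shControl against 58 and 79 in shLmna (log2 fold change -0.70, SE 0.203, edgeR adjusted p = 0.0452). The shuttle's aminotransferases and malate dehydrogenases, partners of Slc25a13, gave 0.11 (Got1), 0.07 (Got2), 0.36 (Mdh1) and 0.13 (Mdh2) on the log2 scale with adjusted p-values of 0.0691 or more by edgeR.

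Among enzymes on the path of citrate that Slc25a1 exports, changes were found in both directions. Acly, which splits cytosolic citrate to acetyl-CoA, had 601 and 579 counts in shControl against 192 and 467 in shLmna (log2 fold change -0.73, SE 0.210, edgeR adjusted p = 0.0435). Me1, the cytosolic malic enzyme that makes NADPH, rose by 0.75 on the log2 scale (SE 0.150, edgeR adjusted p = 0.00917). Of the 10 tested folate enzymes, the users of what Slc25a32 brings in, 1 passed. Aldh1l2, which oxidises formyl-folate in mitochondria, had 40 and 49 counts in shControl against 60 and 86 in shLmna (log2 fold change 0.88, SE 0.225, edgeR adjusted p = 0.0271).

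Of 16 tested genes of mitochondrial iron use, downstream of Slc25a37, 3 passed and all 3 were higher. Over all tested genes, 5.48% were higher and 9.74% lower. The 3 were Alas1, the first enzyme of heme synthesis (log2 fold change 0.56, SE 0.142), Fech, which puts iron into heme (0.46, SE 0.127), and Fdx1, a ferredoxin (0.48, SE 0.125), with adjusted p-values of 0.0257 to 0.0377 by edgeR. None of the 3 passed with DESeq2. Among 18 tested transporters of the inner membrane outside the family, the serine carrier Sfxn1 rose by 0.80 on the log2 scale (SE 0.128, edgeR adjusted p = 0.00286) and its relative Sfxn3 fell by 1.01 on the log2 scale (SE 0.206, edgeR adjusted p = 0.00992). Mpc2, a subunit of the pyruvate carrier, and Ghitm rose by 0.56 and 0.52 on the same scale, and Mpc1, the partner of Mpc2, gave -0.18 and did not pass. Of the 15 tested genes that import carrier precursors Timm8b, a small chaperone of the intermembrane space, rose by 0.52 on the log2 scale and no other passed. Timm8a1 of the same list was too sparse for the test, with 13 and 11 counts in shControl against 0 and 0 in shLmna. It passed as lower with DESeq2, with no filter on low counts and on the batch-corrected values. Tomm5 and Tomm70a passed as lower with no filter and with the replicate block. Timm9 and Tomm22 passed as higher on the batch-corrected values. Of the 10 tested regulators of mitochondrial biogenesis Pprc1, a coactivator, rose by 0.70 and Tfb2m, a mitochondrial transcription factor, by 1.25 on the log2 scale. The 3 channels of the outer membrane gave log2 fold changes of 0.35 (Vdac1), -0.33 (Vdac2) and 0.43 (Vdac3), and the 2 tested relatives with the carrier fold -0.11 (Mtch1) and 0.07 (Mtch2), and did not pass.

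The 4 members with the largest falls had a low GC content at the counted end of the transcript, but not all members of low GC content fell. Over the last 1000 bases of the annotated transcript, GC content was 31.0% in Slc25a16, 38.2% in Slc25a13, 38.6% in Slc25a32 and 42.2% in Slc25a37, with a median of 38.4%, beside a median of 50.2% for the 28 tested members that did not pass as lower and 46.9% for all tested genes with an annotated end. Slc25a5 (46.3%) and Slc25a1 (55.7%) lay higher, and the median of all 6 lower members was 40.4%. Slc25a51, which passed as higher, had 38.9%. Slc25a24 and Slc25a40, with log2 fold changes above 0, had 33.6% and 35.8%. Over all genes, 25.1% of the 1791 with a GC content under 40% were lower in shLmna, against 5.27% of those between 40 and 50% and 6.76% of those above. In the first class 3 of 6 tested members were lower and 1 higher, in the second 2 of 13 lower and 1 higher, and in the third 1 of 15 lower. Across the 34 members, which share the same 4 libraries, Pearson's r of GC content and log2 fold change was 0.37 and Spearman's rho 0.06, given as a description. Over all tested genes with an annotated end, Pearson's r was 0.19 and Spearman's rho -0.013. When a GC curve fitted in each library was taken out, the 6 lower members passed with log2 fold changes of -2.16 (Slc25a13), -3.60 (Slc25a16), -2.64 (Slc25a32), -3.07 (Slc25a37), -0.62 (Slc25a1) and -0.52 (Slc25a5), Slc25a14 and Slc25a51 narrowly missed the threshold at 0.95 and 0.76, close to their uncorrected 1.01 and 0.80, and Slc25a24 passed as higher. Beyond this correction, the part of GC content in the calls was not tested.

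**Figure D4:**
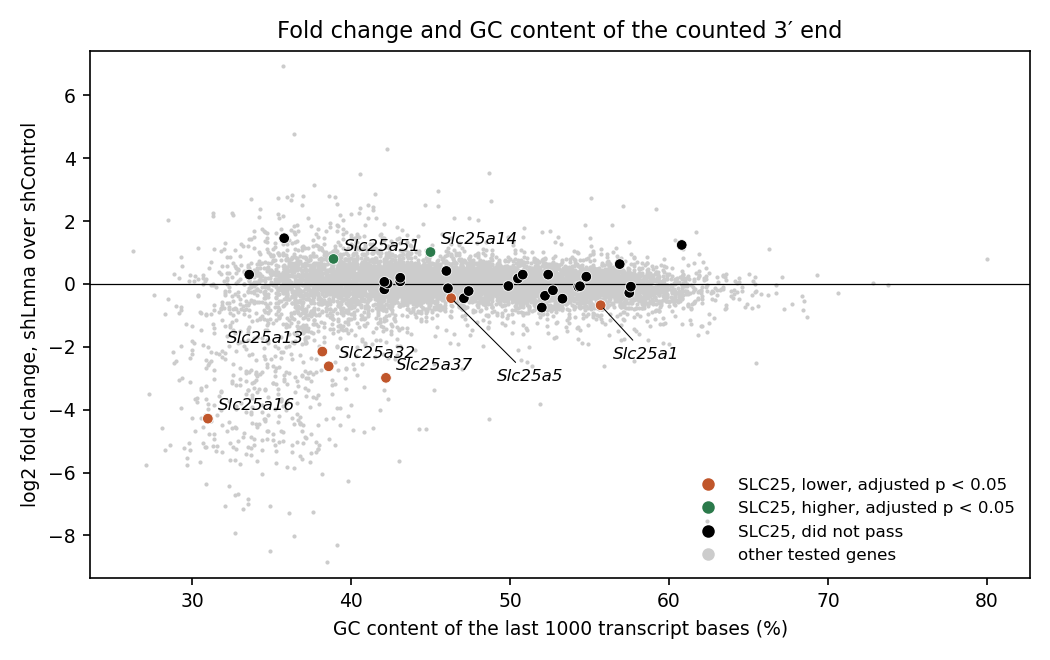
Log2 fold change of shLmna over shControl (vertical axis) against GC content over the final 1000 transcript bases (horizontal axis, percent) for the 34 tested SLC25 genes (large points) and all other tested genes (small grey points). Slc25a16, Slc25a13, Slc25a32 and Slc25a37, at 31.0 to 42.2% GC, lie below the bulk of the grey points, and the SLC25 genes above 50% GC lie between -0.75 and 1.24.

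The calls were recomputed under other settings. Slc25a13, Slc25a16 and Slc25a37 passed under all 13 alternatives, as did Lmna, with log2 fold changes of -2.30 to -0.78, of -5.05 to -0.43 and of -4.08 to -0.41. In 4 of the alternatives 1 library was left out, so that the spread came from the other group alone and the lone library was assumed to vary like it. The small ends of these ranges came from the batch-corrected values deposited by the authors, on which limma gave -0.78 for Slc25a13, -0.43 for Slc25a16, -0.29 for Slc25a32 and -0.41 for Slc25a37, all passing, and -1.54 for Lmna beside -2.61 from the counts. On that scale no member reached a log2 fold change of 1, and Slc25a1 and Slc25a5 passed at -0.31 and -0.30. The limma fit had the group only and took no account of the batch correction already made, so its p-values may be too small. The study's methods name these values as the basis of its plots.

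**Figure D5:**
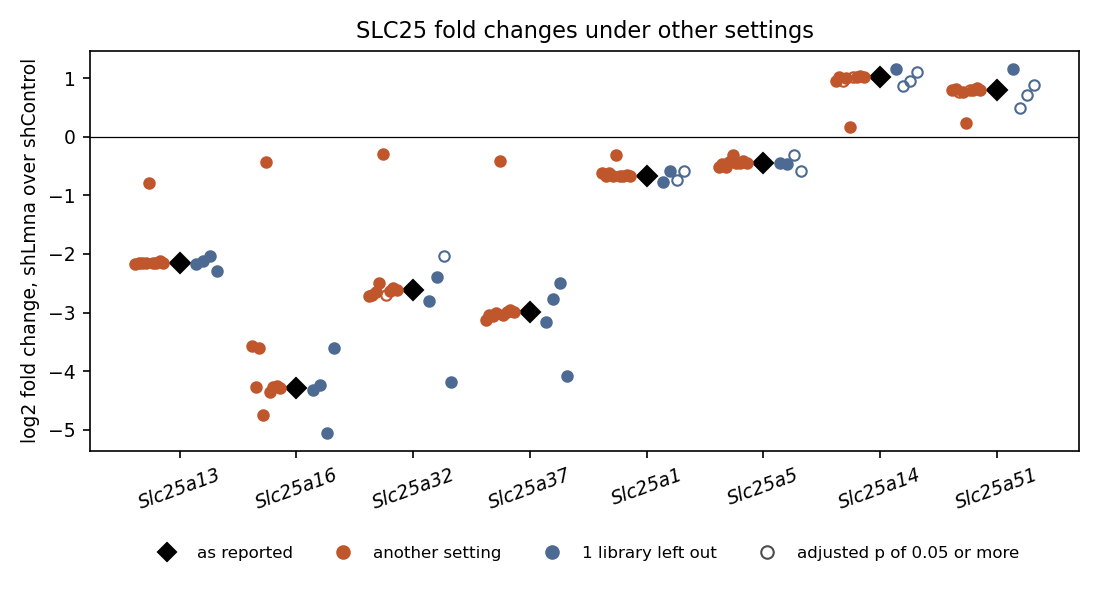
Log2 fold change of shLmna over shControl (vertical axis) of the 8 SLC25 genes that passed, as reported (black diamonds), under other settings (orange) and with 1 library left out (blue), where open circles mark an adjusted p of 0.05 or more. The lone orange points nearer to 0 are the batch-corrected values, and open circles are found for Slc25a32, Slc25a1, Slc25a5, Slc25a14 and Slc25a51 and not for Slc25a13, Slc25a16 or Slc25a37.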

How the data were processed

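Per the labels and the study's methods, the authors prepared bulk 3′ libraries (MARS-seq), trimmed reads with cutadapt, aligned them with STAR 2.4.2a to mm10 and used HTSeq to make the deposited counts per gene. They also deposited a DESeq2-normalised signal with p-values of their own comparison, which were not used, and ComBat batch-corrected log2 values. Which batches were corrected is not given in the sources used here.

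Genes were filtered with filterByExpr (minimum count of 10) and tested with edgeR 4.0.16 (R 4.3.3, TMM, quasi-likelihood F test, group only, two-sided), with Benjamini-Hochberg adjustment over 9150 genes and a limit of 0.05. CPM used TMM library sizes. Alternatives were DESeq2 1.42.0, limma 3.58.1 on the batch-corrected values, other scalings, no filter, counts recovered from the normalised signal (100% whole within 0.01, the deposited counts being 1.08 to 1.09 times as large), a lowess GC curve (span 0.3), the replicate block, and each library left out. GC content came from GENCODE M21 transcripts. The edgeR script was tested on simulated data. All members with an adjusted p under 0.05, their closest relatives and the defining carriers of each role were named. The family and the lists were chosen with earlier results of these data known, and the members within the family by symbol. Values of a few genes that entered the counts are not reported here. Totals of 2494880 to 3808843 counts leave genes of a few counts imprecise.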

Additional observations from a re-analysis of the deposited data

How the results depend on the processing

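The 22 genes followed by name kept direction and side of the threshold in 256 of 285 comparisons with an alternative, 16 lost and 6 gained the call, and 7 changed sign. The number of lower SLC25 genes (6) was within 1.5 times of that under every alternative but 1 and ran from 3 to 6 with 1 library left out. The number of higher ones (2) was 0 with DESeq2, 5 on the batch-corrected values, 1 with the GC correction, 4 with the replicate block and the GC correction together, and 0 to 4 with 1 library left out. With the limits of the study, the 4 lower members became 0 on the batch-corrected values and ran from 3 to 4 with 1 library left out. The 1 higher member became 2 with no filter, 0 with DESeq2, 0 on the batch-corrected values, 0 with the GC correction, 2 with the replicate block, and 0 to 3 with 1 library left out. In the other mitochondrial lists, the 4 lower genes became 2 with library totals, 8 with no filter, 9 on the batch-corrected values, 7 with the replicate block with or without the GC correction, and 0 to 9 with 1 library left out, and the 11 higher genes became 4 with DESeq2, 27 on the batch-corrected values and 1 to 16 with 1 library left out. The median log2 fold change of the tested members (-0.08) was -0.0075 on the batch-corrected values and -0.090 to 0.00098 with 1 library left out. Signs changed only with 1 library left out and in genes that did not pass, in Slc25a11 (-0.13 to 0.0094), Slc25a22 (-0.23 to 0.12), Slc25a28 (-0.21 to 0.059) and Slc25a42 (-0.39 to 0.0013). The cause of these shifts was not tested.

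Same-numbered libraries did not deviate together from their group means (r = 0.0129 over tested genes). From 2 libraries a group, this value cannot show whether they shared a culture, a day or a batch. With the replicate block Slc25a40 passed as higher (1.64, adjusted p = 0.0153). With 2 libraries a group and counts under 40 for Slc25a16, Slc25a32, Slc25a37 and Slc25a14 in most libraries, the precision of these values is low. The smallest difference that could be detected was not measured.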
